A study of Mus with 18 samples.

Results

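The 3 Egr1KO and the 3 FosBcKO libraries of lens epithelial cells (LECs) taken 6 h post cataract surgery (PCS) were compared with each other directly. These 6 of the 18 libraries of the series were chosen by their sample titles, and no wild type (WT) library entered the comparison. Egr1KO mice lack Egr1 in every tissue, through a neo cassette in exon 2 of the gene. FosBcKO mice carry a Fosb allele whose floxed exons 2 and 3 are deleted in the lens by MLR10 cre, which a modified alpha-A crystallin promoter drives. All groups were C57BL/6 per the labels, but the study's methods give a mixed B6N and 129 stock for the Egr1 allele and an FVB/N origin, later backcrossed, for the cre transgene. The knocked out gene and other differences between the lines therefore cannot be told apart. Mice were 3 to 5 months old and of both sexes, the lens fiber cells were removed surgically, and each library came from a pool of 5 lens capsules. The 0 h libraries of the same genotypes, taken at once after surgery, and the WT libraries of both times were used for reference.

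Removal of the fiber cells in cataract surgery leaves LECs attached to the capsule, and their response to this injury can lead to posterior capsular opacification, a scarring of the capsule that blurs vision again. Egr1 is a zinc finger transcription factor and FosB is a subunit of AP-1, a transcription factor made of paired Fos and Jun family proteins. Both belong to the immediate early genes, which cells induce within minutes to hours of a stimulus without new protein synthesis. The direct comparison asks in which transcripts injured LECs without Egr1 differ from injured LECs without FosB.

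The measured values were counts of read pairs per Ensembl gene ID. The deposited tables do not pair IDs with gene symbols, and the RefSeq table at hand matched 0 of the 55416 IDs, so genes are given as IDs, and only 2 in each direction are printed. The levels of Egr1 and Fosb, gene lists and cell type markers were not analysed here. Egr1KO and FosBcKO thus name the libraries so labelled, and neither genotype nor cell type was checked by its defining transcripts. At 6 h the Egr1KO libraries held 10102956 to 13871592 counted read pairs and the FosBcKO libraries 11572246 to 11647796.

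Injured LECs of the knockouts differed mostly in one direction, with far more transcripts higher in FosBcKO than in Egr1KO. Of 15885 genes tested, 397 were differentially expressed genes (DEGs; 2.50% of those tested), 362 of them higher in FosBcKO (2.28%) and 35 higher in Egr1KO (0.220%). A DEG had a false discovery rate (FDR) of at most 0.05 by edgeR's exact test and a change of more than 2-fold. The median log2 fold change, always given as Egr1KO minus FosBcKO, was -1.69 for the genes higher in FosBcKO and 1.71 for those higher in Egr1KO, against -0.002 for all tested genes. The scaling of libraries centres the fold changes, so the last value says nothing of a shift common to all genes. Of the DEGs, 275 differed 2- to 4-fold, 96 differed 4- to 16-fold and 26 differed more than 16-fold. The level of the DEGs depended on the size of the difference. The median average level of the 397 DEGs was 4.31 log2 CPM (counts per 1000000 counted read pairs), against 3.76 for all tested genes. Of the 397, 141 reached 5 log2 CPM or more. The median was 4.96 log2 CPM for DEGs that differed 2- to 4-fold. It was lower than that of all tested genes for larger differences, at 1.84 for 4- to 16-fold and 1.34 for more than 16-fold. The CPM of all 3 libraries of one knockout lay above that of all 3 of the other in 386 of 397 DEGs, against 15.7% of all tested genes. For genes higher in FosBcKO this held in 360 of 362 (12.2% of tested genes), and for genes higher in Egr1KO in 26 of 35 (3.58%). The DEGs were chosen on these same libraries, so their separation follows largely from the choice and is a description only. The plot of fold change by level shows both sets over the whole range of expression.

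**Figure D1:**
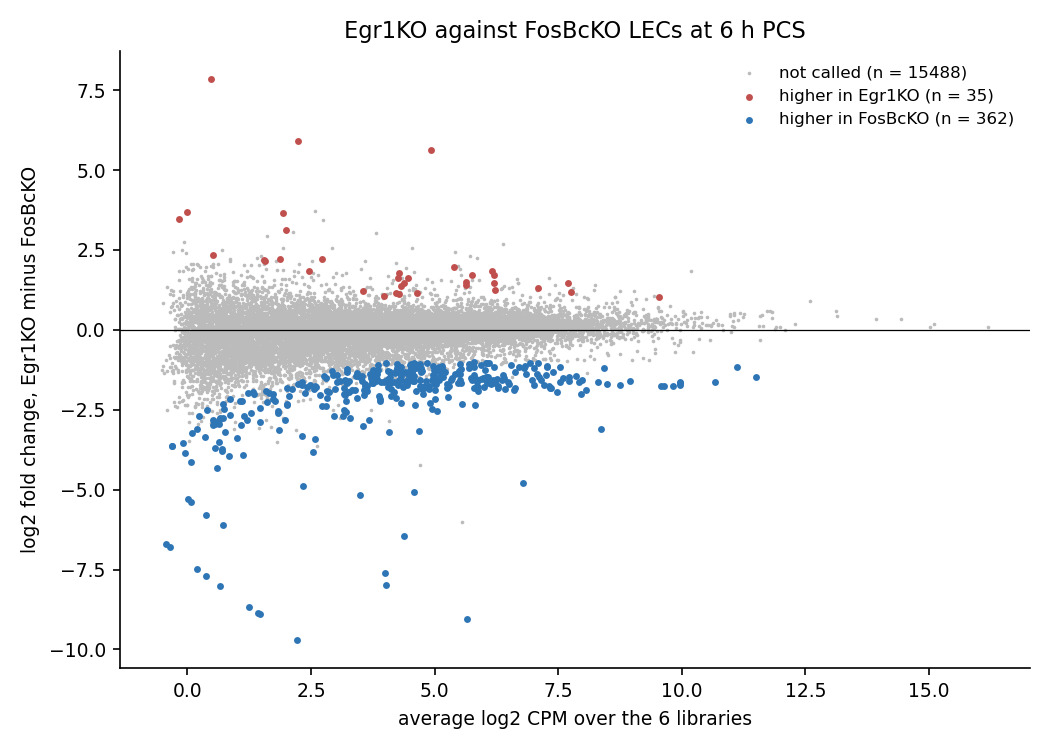
Each point is 1 of 15885 genes, with the average log2 CPM of the 6 libraries on the x axis and the log2 fold change, Egr1KO minus FosBcKO at 6 h PCS, on the y axis. The 362 DEGs higher in FosBcKO (blue) extend from low to high expression below the line at 0, while the 35 higher in Egr1KO (red) are fewer at every level.

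The number of calls depended on the test and on single libraries, and the split between the directions changed most with 1 library. The quasi-likelihood F-test of edgeR, which allows for the uncertainty of each gene's dispersion, called 159 genes (1.00% of those tested), 153 higher in FosBcKO and 6 higher in Egr1KO, and all 159 were also DEGs of the exact test. One quasi-likelihood fit of all 18 libraries called 38, 24 higher in FosBcKO and 14 higher in Egr1KO, a less lopsided split. Without Egr1KO replicate 1 there were 656 DEGs, and those higher in Egr1KO numbered 251 rather than 35. Without Egr1KO replicate 2 there were 599 DEGs, without Egr1KO replicate 3 there were 237, and without FosBcKO replicate 1 there were 217. Genes higher in FosBcKO outnumbered the others in each of these fits. Of the 397 DEGs, 177 were called in all 6 fits that left out 1 library, 170 of them higher in FosBcKO, and the F-test called 149 of the 177. The plot of calls by test shows these counts side by side.

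**Figure D2:**
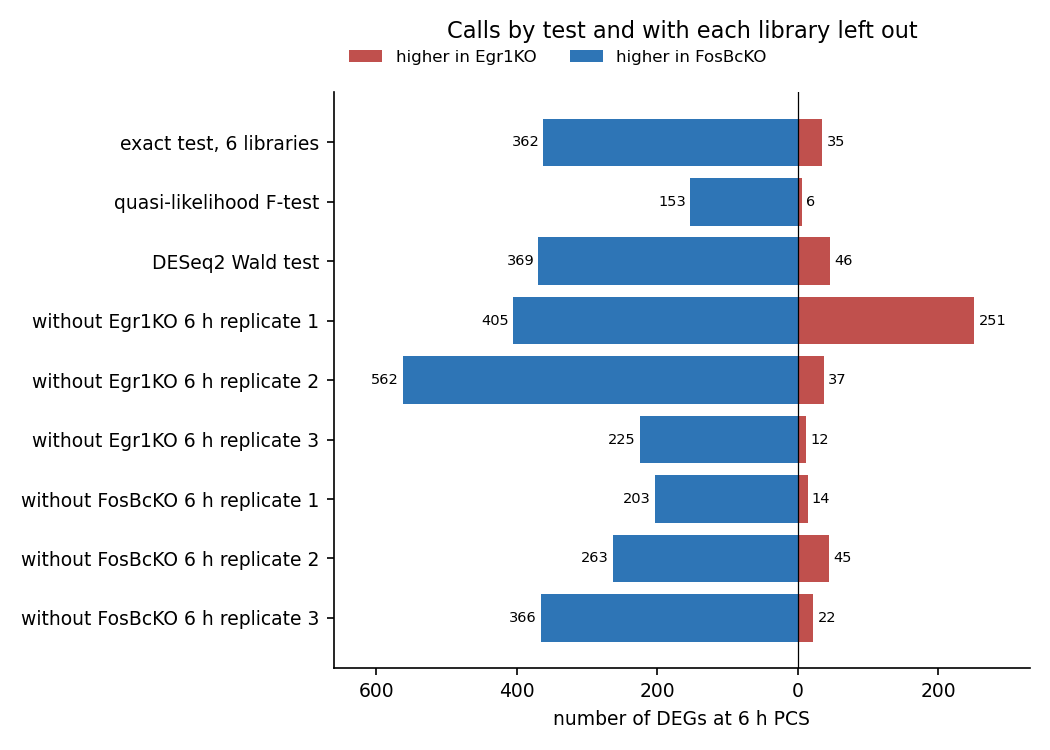
Bars give the number of DEGs at 6 h PCS, higher in FosBcKO to the left (blue) and higher in Egr1KO to the right (red), for 3 tests of the 6 libraries and for the exact test with each library left out. The red bar reaches 251 without Egr1KO replicate 1 and is between 6 and 46 in the other fits shown.

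Egr1KO replicate 1 stood apart from the other libraries of the comparison. On the first principal component of log2 CPM, which held 37.6% of the variance of the 6 libraries, it lay at -89.1, while the others lay between -20.7 and 48.9, and this component did not separate the knockouts. The second component, with 28.4% of the variance, placed the Egr1KO libraries between -0.13 and 58.5 and the FosBcKO libraries between -47.5 and -21.6. The spread between libraries of a group was larger after injury, with a common biological coefficient of variation of 36.9% at 6 h and 22.6% at 0 h.

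More genes were detected in FosBcKO than in Egr1KO at 6 h. The number of gene IDs with a count was 20336, 22583 and 20848 in the Egr1KO libraries and 25999, 22892 and 23699 in the FosBcKO libraries, so that the groups did not overlap. With counts thinned to a common depth it was 20977 ± 878 in Egr1KO and 23801 ± 1542 in FosBcKO (SD, n = 3; two-sided exact permutation test, p = 0.1, the smallest that 3 against 3 libraries allow). Read pairs outside annotated genes made up 20.0%, 24.0% and 20.4% of all pairs in Egr1KO and 30.5%, 25.0% and 23.4% in FosBcKO (exact permutation test, p = 0.2). FosBcKO replicate 1 had the highest value of both measures. Among the 397 DEGs it was the highest of its group in 230, and FosBcKO replicate 3 was the lowest in 259. The matching shares of all tested genes were not counted, so these counts cannot be called particular to the DEGs. The part of these measures in the fold changes was not tested.

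The genes chosen as higher in FosBcKO at 6 h were also somewhat higher in FosBcKO in the 0 h libraries, which had no part in the choice. Their median level was 3.97, 3.54 and 3.76 log2 CPM in the FosBcKO libraries at 0 h and 5.13, 4.89 and 4.72 at 6 h. In the Egr1KO libraries it was 2.23, 3.16 and 3.03 at 0 h and 3.24, 3.44 and 3.25 at 6 h. The FosBcKO libraries thus lay above all Egr1KO libraries at 0 h. The separation at 6 h, and a wider gap than at 0 h, follow from the choice of the genes on the 6 h libraries. In bulk tissue, more cells of a type and more RNA per cell cannot be told apart.

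In WT, which entered neither comparison, the same 362 genes varied widely between libraries. Their median level was 3.19, 0.71 and 3.66 log2 CPM in WT at 0 h and 3.03, 2.39 and 3.51 at 6 h. WT replicate 2 was the lowest of the 3 WT libraries at 0 h in 314 of the 362 genes (86.7%, against 35.5% of all tested genes), and in 173 of them it was more than 4-fold below both others (47.8%, against 3.02%). The median range over the 3 WT libraries at 0 h was 2.70 log2 units per gene for these genes and 0.48 for all tested genes. Among WT libraries at 0 h this range was larger than the median difference of 1.69 log2 units between the knockouts at 6 h. Among WT libraries at 6 h, the same time as that difference, it was smaller, at 1.21 log2 units, against 0.71 for all tested genes. A range over 3 single libraries and a difference between groups are unlike measures, and replicate 2 widened the range at 0 h. The 2 values therefore cannot be weighed against each other. Within the knockout groups the 362 genes varied less. The median range was 1.17 log2 units in Egr1KO and 0.66 in FosBcKO at 0 h, against 0.48 and 0.52 for all tested genes. At 6 h it was 0.76 and 0.63, the same as for all tested genes. The test that chose these genes favours a small spread within the groups at 6 h.

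The 35 genes higher in Egr1KO showed no such drop in WT replicate 2. Their median level was 4.25, 4.44 and 4.16 log2 CPM in WT at 0 h and 4.52, 4.57 and 3.58 at 6 h. In the Egr1KO libraries it was 3.72, 4.20 and 4.19 at 0 h and 4.65, 4.86 and 4.92 at 6 h. In the FosBcKO libraries it was 3.69, 3.86 and 3.53 at 0 h and 3.26, 3.48 and 3.39 at 6 h. The Egr1KO and FosBcKO libraries overlapped at 0 h, while their separation at 6 h was fixed by the choice of the genes. The plot of median levels shows both sets in all 18 libraries.

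**Figure D3:**
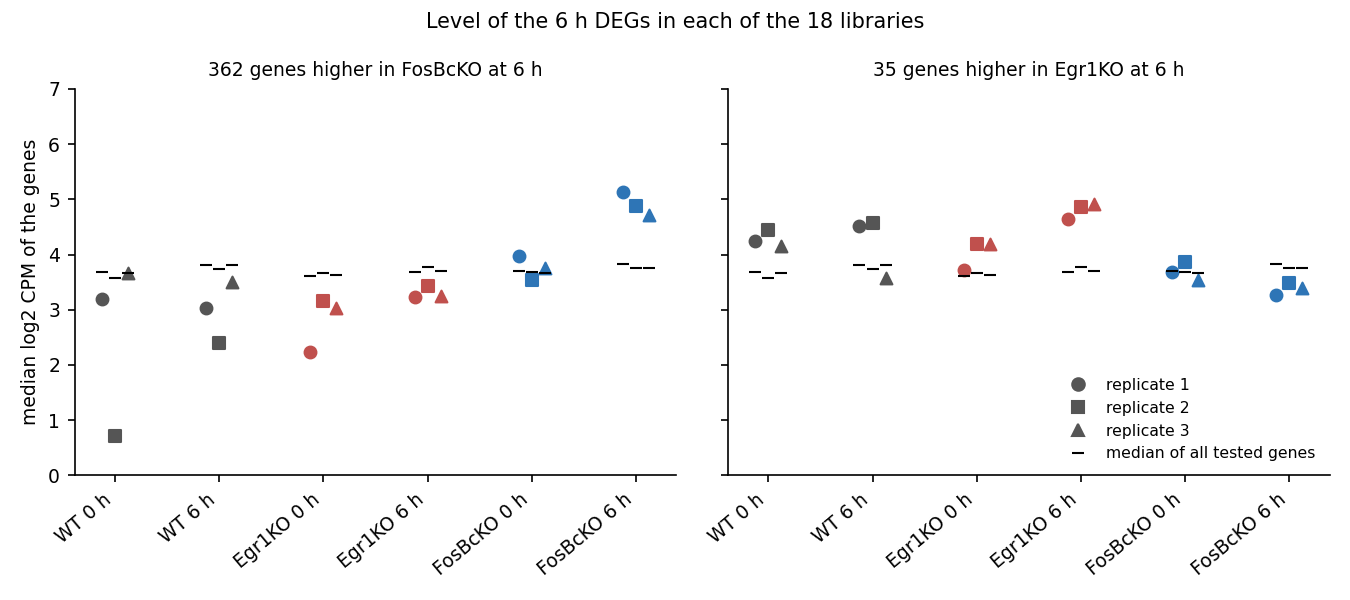
Each symbol is the median log2 CPM, in 1 of the 18 libraries, of the 362 genes higher in FosBcKO (left) or the 35 higher in Egr1KO (right) at 6 h PCS, and black dashes give the median of all tested genes in that library. On the left the FosBcKO libraries at 6 h lie highest, at 4.72 to 5.13, and WT replicate 2 at 0 h lies lowest, at 0.71.

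To see where injured WT cells stood for these genes, each gene's mean in WT at 6 h was set beside the means of the knockouts, on the scale log2(CPM + 0.5). For genes higher in FosBcKO, the WT mean was nearer to Egr1KO in 303 of 362 (83.7%, against 51.3% of all tested genes). The median difference of WT was -0.06 from Egr1KO and -1.74 from FosBcKO. All 3 WT libraries lay below all 3 FosBcKO libraries in 288 of the 362 (79.6%, against 10.7% of all tested genes). Against Egr1KO, all WT libraries were below in 61 (16.9%, against 3.42%) and above in 37 (10.2%, against 12.97%). Without WT replicate 2, chosen after seeing the data, the WT libraries lay below all FosBcKO libraries in 291 of the 362 genes (80.4%, against 13.4% of all tested genes). For genes higher in Egr1KO, the WT mean was nearer to Egr1KO in 24 of 35 (68.6%, against 51.3%), but in 17 of 35 without WT replicate 2 (48.6%, against 47.6%). All WT libraries were above all FosBcKO libraries in 20 of the 35 (57.1%, against 11.4% of all tested genes) and below all Egr1KO libraries in 12 (34.3%, against 3.42%). These WT positions share the knockout libraries that chose the genes and are descriptions only.

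The same knockouts were compared at 0 h, in libraries that do not enter the 6 h comparison, to ask which differences were there before the injury response. At 0 h, 136 of 14167 genes tested were DEGs (0.960%), 104 higher in FosBcKO (0.734%) and 32 higher in Egr1KO (0.226%). The F-test called 65 genes (0.459%). Of the 397 DEGs at 6 h, 353 were tested at 0 h, and 332 of these (94.1%) had the same direction, against 61.2% of the 13839 genes tested at both times. The difference was called at 0 h in the same direction for 72 of the 353 (20.4%, against 0.896% of the genes tested at both times) and in the opposite direction for none. Genes higher in FosBcKO made up 64 of the 72, with a median log2 fold change of -1.44 at 0 h and -1.81 at 6 h. The 8 higher in Egr1KO had medians of 3.04 at 0 h and 3.39 at 6 h. By the F-test, 24 genes were called at both times. Without FosBcKO replicate 1 of 0 h, 44 were called at both times by the exact test.

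The share of DEGs that were also called at 0 h is given here by the size of the difference at 6 h. Of the 26 DEGs that differed more than 16-fold at 6 h, 14 were called at 0 h in the same direction, 2 were tested there and not called in that direction, and the other 10 had too few counts at 0 h to be tested. Of the 96 that differed 4- to 16-fold, 65 were tested at 0 h and 18 were called. Of the 275 that differed 2- to 4-fold, 272 were tested at 0 h and 40 were called. Among the DEGs of these 3 bands that were tested at 0 h, the median absolute log2 fold change at 0 h was 5.41, 1.14 and 0.84. DEGs with too few counts at 0 h do not enter these medians, which therefore do not describe the whole bands. The plot of both fold changes shows many of the large differences close to the line of equal values, with several away from it.

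**Figure D4:**
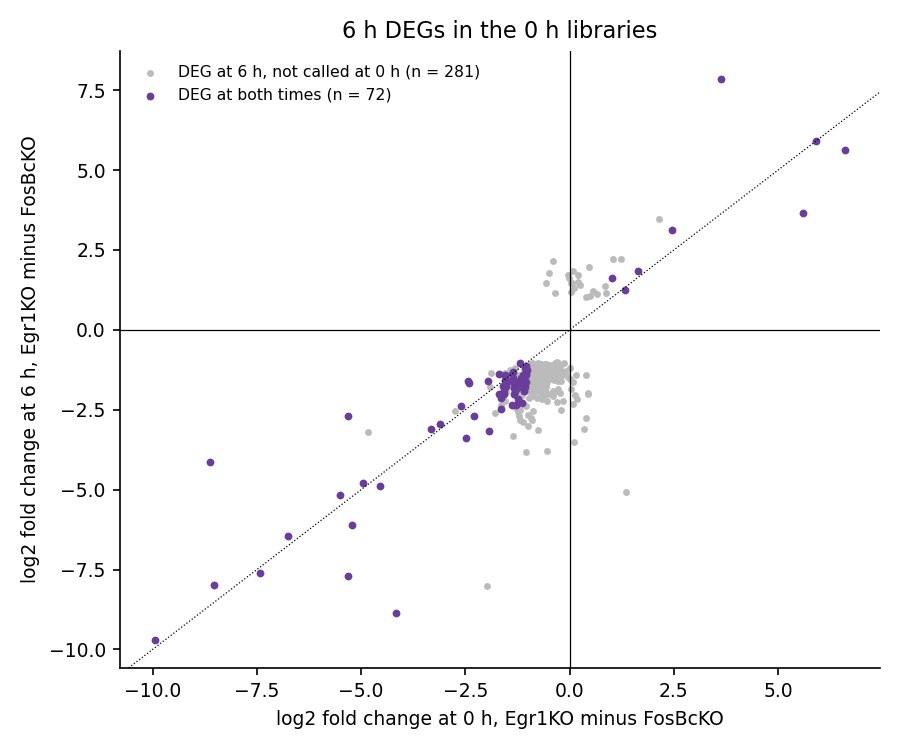
Each point is 1 of the 353 DEGs of 6 h PCS that were also tested at 0 h, with the log2 fold change, Egr1KO minus FosBcKO, at 0 h on the x axis and at 6 h on the y axis. The 72 genes called at both times (purple) share their direction, most of the 281 others (grey) lie in the same quadrants but nearer to 0 on the x axis, and the dotted line marks equal values.

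The DEGs tested but not called at 0 h were the larger group, 281 genes with a median absolute log2 fold change of 0.78 at 0 h and 1.59 at 6 h. Of these, 260 had the same direction at both times. A difference at 0 h below the threshold does not show that it arose with injury. Whether the change with injury itself differed between the knockouts was tested as an interaction over the 12 knockout libraries. The F-test called 0 of 16638 genes (0%), with 775 at an unadjusted p under 0.05, while DESeq2's Wald test called 5. The F-test called 28 when genes of low count were not filtered out, and 13 without Egr1KO replicate 1 of 6 h, and in 12 of the 13 the change from 0 h to 6 h was more positive in Egr1KO.

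Each knockout's own change from 0 h to 6 h is given here side by side, and each uses the 6 h libraries that chose the genes. More rises in the knockout where a set was higher at 6 h follow largely from that choice. The counts are descriptions only and do not show that the response to injury differed. In FosBcKO, 202 of the 360 genes of the FosBcKO-high set that could be tested rose with injury by the exact test and none fell, where 13.8% of all genes tested rose and 2.38% fell. In Egr1KO, 37 of 302 rose and 5 fell, where 12.2% of all genes tested rose and 3.61% fell. The median log2 change with injury of the set was 1.13 in FosBcKO and 0.38 in Egr1KO. Of the 35 genes higher in Egr1KO, 19 rose and 1 fell with injury in Egr1KO. In FosBcKO, 1 of the 27 that could be tested rose and 2 fell. The medians were 1.20 in Egr1KO and -0.14 in FosBcKO.

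A small group of transcripts was near absent in one knockout and present in every library of the other. At 6 h, 17 genes had a summed count of at most 3 over the Egr1KO libraries and at least 10 counts in each FosBcKO library, and 1 gene showed the reverse. All 18 were DEGs, which the rule made likely, as it used the same libraries as the test. The 17 were of low abundance, with a mean in FosBcKO between 1.15 and 9.43 CPM and a median of 1.98. At 0 h, 4 of the 17 met the same rule and 4 had a summed count of at most 3 in each knockout. The 3 FosBcKO libraries lay above the 3 Egr1KO libraries at 0 h in 6. The shares of all tested genes for these 0 h counts were not worked out, so the counts are descriptions only. In WT at 6 h, 8 of the 17 reached 10 counts in no library, 4 in 1 library, 5 in 2 and none in all 3. By the rule used for near absence in Egr1KO, a summed count of at most 3, only 3 of the 17 were near absent in WT at 6 h. The genes were chosen for their counts in FosBcKO, which makes lower counts in other groups likely. These WT counts are descriptions only. The gene of the reverse pattern had summed counts of 83 in Egr1KO and 0 in FosBcKO at 6 h, 69 and 5 at 0 h, and 34 and 89 in WT at 6 h and 0 h.

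The 2 IDs printed for each direction had the highest and the lowest log2 fold changes among DEGs with an average of at least 1 log2 CPM and no overlap between libraries. The quasi-likelihood F-test at 6 h gave these IDs FDRs of 0.0044, 0.0328, 0.0182 and 0.0116, in the order they follow here. These are far larger than the exact test FDRs given with each. ENSMUSG00000112825 was present in Egr1KO cells and near absent in all others, at both times. It had 8.31, 9.44 and 8.38 CPM in the Egr1KO libraries and 0.17, 0.086 and 0.17 CPM in the FosBcKO libraries at 6 h. With summed counts of 304 and 5, the ratio of CPM was 61.3 (exact binomial 95% interval 25.96 to 190.0, counting error only), and the exact test gave an FDR of 1.1e-16. At 0 h the gene was also a DEG (FDR = 5.3e-23), with 12.2 ± 3.63 CPM in Egr1KO and 0.198 ± 0.11 CPM in FosBcKO (SD, n = 3). WT libraries had no count at 0 h and at most 0.81 CPM at 6 h, so Egr1KO was the group that stood apart from WT.

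ENSMUSG00000101939 showed the other arrangement, with FosBcKO as the group apart from WT. It had 69.6, 55.8 and 46.0 CPM in the Egr1KO libraries and 3.35, 0.086 and 0.43 CPM in the FosBcKO libraries at 6 h. The log2 fold change was 5.62 (exact test FDR = 7.89e-06), and at 0 h it was 6.61 (FDR = 1.78e-53). The quasi-likelihood fit at 6 h gave 5.60, with an SE of 0.85 worked out from its F statistic. FosBcKO replicate 1 held 39 of the 45 counts of its group at 6 h, and without it the log2 fold change was 7.79 (FDR = 5.2e-36). WT libraries had 56.5, 26.4 and 62.5 CPM at 6 h and 31.0, 23.5 and 29.1 CPM at 0 h. Both genotypes with this transcript had higher means at 6 h than at 0 h, 57.1 and 25.8 CPM in Egr1KO and 48.5 and 27.9 CPM in WT.

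ENSMUSG00000088025 had no count in any Egr1KO library at either time. In FosBcKO it had 17.0, 5.10 and 6.19 CPM at 6 h and 14.5, 14.4 and 6.50 CPM at 0 h. Set against a floor of 3 counts per library in Egr1KO, the FosBcKO mean at 6 h was at least 35.5-fold higher (exact test FDR = 3.52e-12). In WT only replicate 1 had counts, 11.1 CPM at 0 h and 24.0 CPM at 6 h, and the other WT libraries had none. Its presence thus differed between WT libraries of the same time.

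ENSMUSG00000075014 was near absent in both knockouts at 0 h and reached high levels at 6 h in FosBcKO but not in Egr1KO. It had 0.30, 0.22 and 0 CPM in the Egr1KO libraries and 164, 32.1 and 121 CPM in the FosBcKO libraries at 6 h. With summed counts of 3687 in FosBcKO and 6 in Egr1KO, the ratio of CPM was 609.9 (exact binomial 95% interval 280.0 to 1663, counting error only), and the exact test gave an FDR of 6.95e-22. At 0 h the 6 knockout libraries together held 1 count, so the gene was not tested there. WT libraries had 71.0, 0 and 32.4 CPM at 6 h and 0, 4.98 and 3.21 CPM at 0 h. The range in WT at 6 h thus ran from the Egr1KO level to within the FosBcKO range. The plot of the 4 IDs shows these values in each library.

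**Figure D5:**
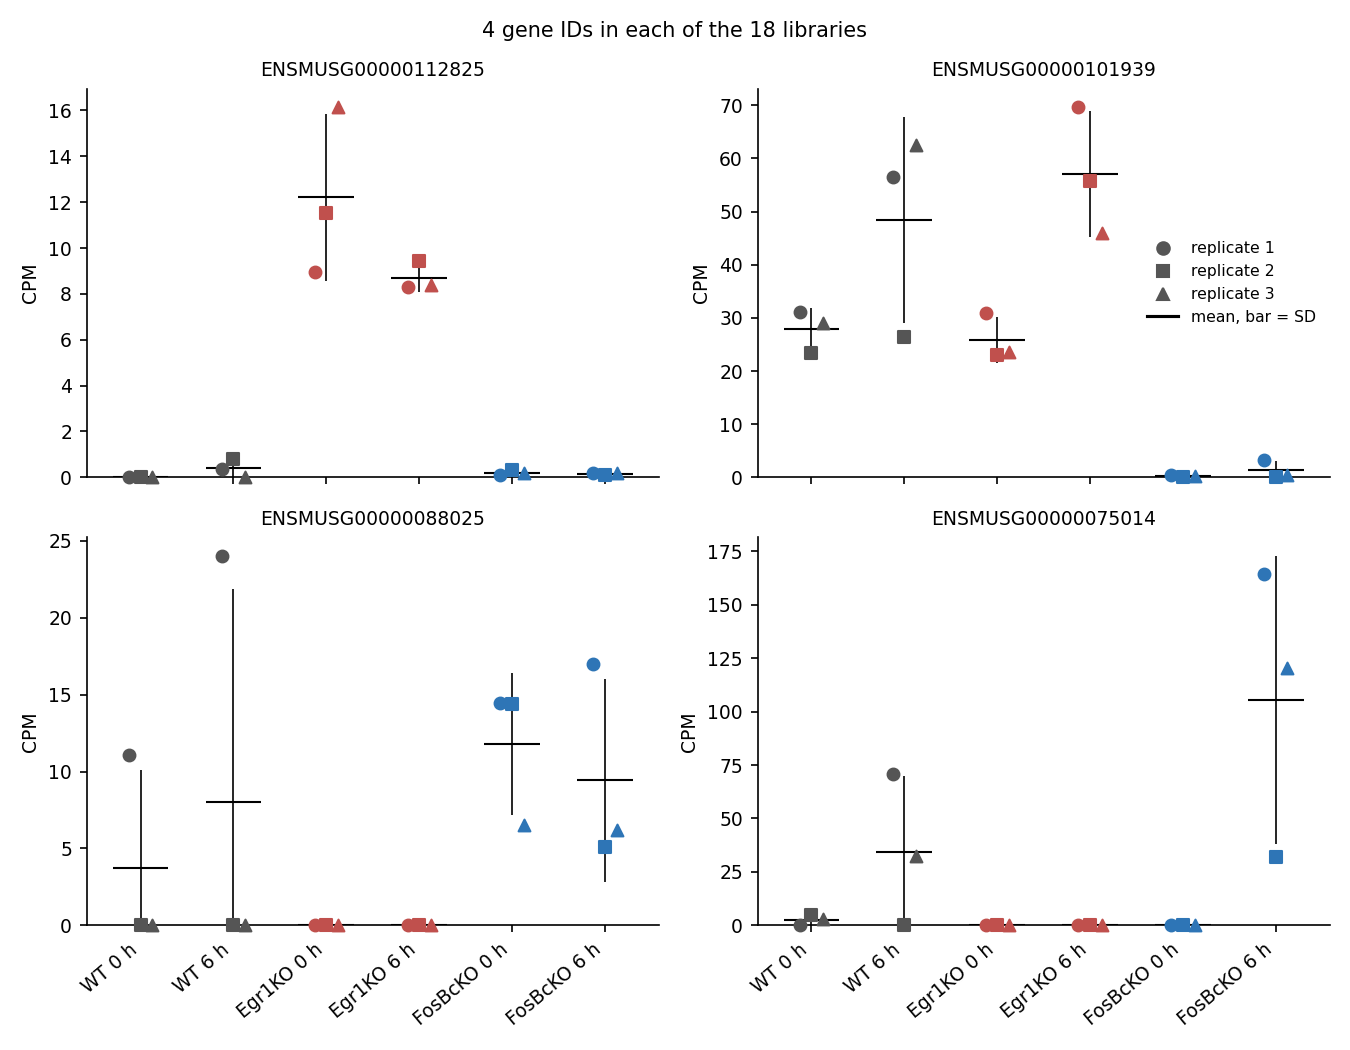
CPM (y axis, linear, from 0) of 4 gene IDs in the 18 libraries by group, with symbols for replicates, a horizontal line for the mean and a vertical bar for the SD (n = 3, cut at 0). ENSMUSG00000112825 is high in Egr1KO alone, ENSMUSG00000101939 is near 0 in FosBcKO alone, ENSMUSG00000088025 is at 0 in Egr1KO and in WT replicates 2 and 3, and ENSMUSG00000075014 reaches 32.1 to 164 CPM in FosBcKO at 6 h.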

How the data were processed

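Libraries were paired-end, strand-specific and depleted of ribosomal RNA (Takara SMARTer Stranded Pico v2). The authors aligned the reads with Hisat2 and used HTSeq-count in union mode on Ensembl genes. The study's methods name GRCm38 and the submitters' processing notes GRCm39, and no coordinate is used here. The deposited tables give unnormalized counts, 1 per counted read pair. The summary lines, which name no gene, entered neither library totals nor tests. The read pairs outside genes among them made up 8.03% to 30.5% of all pairs per library. Without molecular identifiers, PCR copies count separately, and depth limits counting error only. Pairs shared by overlapping or near-identical genes are not counted, so such genes are uncertain.

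Tests used edgeR 4.0.16 in R 4.3.3, with filterByExpr, TMM scaling and robust dispersions, on the 6 libraries of each comparison. The exact test follows the study's comparisons of genotypes. The interaction used the quasi-likelihood F-test over 12 libraries. The FDR is Benjamini-Hochberg adjusted over all genes tested. CPM are counts per 1000000 counted pairs. Median levels used log2 CPM with TMM scaling and a prior count of 2. Printed IDs are the 2 highest and 2 lowest log2 fold changes among DEGs with an average log2 CPM of at least 1 and libraries that do not overlap. Samples are pools, so p-values measure the spread between pools. Methods were tested on simulated data. Figures used matplotlib 3.10.9. Alternatives included DESeq2 1.42.0. The comparison, lists and rules were chosen with earlier results of these data known.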

Additional observations from a re-analysis of the deposited data

Results flagged for a closer look

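Read pairs outside annotated genes, which no test of genes used, were more frequent after injury in both knockouts and in WT. They made up 21.5% of all pairs in Egr1KO at 6 h (mean of 3 libraries) against 11.2% at 0 h, and 26.3% in FosBcKO at 6 h against 13.2% at 0 h, and in each knockout every library of 6 h exceeded every library of 0 h. The same held in WT, with 25.3%, 23.6% and 27.4% at 6 h against 19.8%, 18.5% and 15.2% at 0 h, so the rise was not particular to the knockouts. These pairs cannot be assigned to genes from the deposited counts.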

How the results depend on the processing

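At 6 h the 397 DEGs became 159 by the quasi-likelihood F-test, 4 by that test with a replicate block and 38 by one quasi-likelihood fit of all 18 libraries, and leaving out 1 library gave 217 to 656. DEGs higher in Egr1KO ranged from 12 to 251 as libraries were left out and numbered 14 without a filter on low counts. At 0 h the 136 DEGs became 65 by the F-test, 88 with the block, 13 by the fit of 18 libraries and 206 with no fold minimum, and 94 to 184 as libraries were left out. The 72 genes called at both times became 24, 3 with the block and 8 by the fit of 18 libraries, and 44 to 97 as libraries were left out. The interaction, with 0 calls, gave 5 by DESeq2, 28 without a filter, 1 by the fit of 18 libraries and 0 to 13 as libraries were left out. The causes were not tested. DESeq2, RLE size factors, other filters, dispersions without the robust option, scaling without the 10 most abundant genes and thinned counts, the last pair chosen after seeing the data, gave 283 to 415 DEGs at 6 h. The 4 printed IDs kept their direction in every fit. With the block, the FDR of ENSMUSG00000112825, ENSMUSG00000101939 and ENSMUSG00000088025 rose to 0.0747, 0.0811 and 0.0867, and in the fit of 18 libraries that of ENSMUSG00000088025 and ENSMUSG00000075014 to 0.329 and 0.0779. Replicate numbers did not meet the rule for pairs, a correlation over 0.1 in all 3. Deviations of same-numbered libraries at 6 h correlated at -0.30, 0.12 and -0.05, and not every library correlated best with its own number. For the knockouts at 0 h they were 0.07, 0.17 and 0.07. Between the times they were 0.01, 0.15 and 0.02 in Egr1KO and 0.20, 0.09 and 0.22 in FosBcKO, where each library correlated best with its own number. This is a hint from the data, not the design. The planned scaling that leaves out crystallin and mitochondrial genes, and the gene lists, need symbols and were not run. With 3 libraries a group, the spread between pools limits which small differences can be called.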
